A study of Mus musculus with 24 samples.

Results

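The set described here holds 10 imprinted genes linked to growth, taken from a list of names: Igf2, H19, Dlk1, Meg3, Cdkn1c, Peg3, Igf2r, Grb10, Mest and Ndn. They stand beside 15839 genes with at least 1 read in either cell line. Counts were available from C2C12, a mouse myoblast line that fuses into muscle cells in culture, and NSC34, a mouse hybrid line with features of motor neurons, both labelled wild type. Each line was either co-cultured with the other for 3 days (6 libraries) or kept without co-culture (control, 6 libraries), giving 24 libraries of total RNA read on a Nanopore MinION. How the cells of each line were recovered from the co-culture, and whether replicates were separate cultures, is not in the labels, so p-values measure the spread between these libraries, which may be technical. Each line was 1 established culture, and levels in it need not be those of muscle or of motor neurons in an animal.

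Imprinted genes are transcribed from the copy inherited from only one parent, and many of them set the size of the fetus and placenta. Paternally expressed members tend to promote growth and maternally expressed ones to restrain it. In cultured myoblasts, insulin-like growth factor 2 is made by the cells themselves and acts back on them during differentiation. Several members lie side by side: on GRCm38, 72.6 kb separate Igf2 from H19 on chromosome 7, and 77.7 kb separate Dlk1 from Meg3 on chromosome 12.

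Depth set what could be measured. C2C12 libraries held between 121154 and 658075 reads, and NSC34 libraries between 88 and 30314. A gene with 0 reads could still be present at up to 0.906 CPM (reads of a gene scaled to a library of 1e6 reads) over all C2C12 libraries and up to 42.3 CPM over all NSC34 libraries (3 reads of the total). All 12 myoblast and myotube markers had reads in C2C12. Of these markers 2 had reads in NSC34 co-culture (Chrna1 and Tnnc1, 19 reads) and 2 in NSC34 control (Chrna1 and Myh3, 4 reads). Myod1, Myog, Des, Acta1 and Ttn had 0 reads in both. The summed muscle markers had a median of 283 CPM in NSC34 co-culture and 108 CPM in NSC34 control. In C2C12 the medians were 18413 CPM in co-culture and 17041 CPM in control. Of 14 neuronal markers, 7 had reads in NSC34 co-culture and 5 in NSC34 control, and the motor neuron genes Mnx1, Lhx3 and Slc18a3 had 0 reads in both, so the neuronal label rested on 51 and 15 reads of the list. In C2C12, 8 of the 14 neuronal markers had reads in co-culture (315 reads) and 7 in control (291 reads). Mnx1, Isl1, Lhx3 and Chat had 0 reads in both, but Mnx1 and Lhx3 had none in NSC34 either, and Chat none in NSC34 control. The summed neuronal markers had a median of 174 CPM in C2C12 co-culture and 190 CPM in C2C12 control. In NSC34 the medians were 1134 CPM in co-culture and 744 CPM in control.

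Reads were found for 7 of the 10 genes in C2C12 and for 2 of the 10 in NSC34, with no level available for H19 and Meg3. Igf2, Igf2r and Peg3 took most of these reads in C2C12, and Mest took most in NSC34. The 200 bases upstream of the start nearest to the transcript with most reads are shown for these 4 genes, because nearly all reads of the set came from them. The sequences are those of RefSeq on GRCm38.p6, 5′ to 3′ on the strand of the gene, with CpG dinucleotides, the sites at which imprinted promoters can carry methylation, in capitals. They lie at chr7:142657497-142657696 on the minus strand (Igf2), chr17:12769707-12769906 on the minus strand (Igf2r), chr7:6730420-6730619 on the minus strand (Peg3) and chr6:30737850-30738049 on the plus strand (Mest).
Igf2: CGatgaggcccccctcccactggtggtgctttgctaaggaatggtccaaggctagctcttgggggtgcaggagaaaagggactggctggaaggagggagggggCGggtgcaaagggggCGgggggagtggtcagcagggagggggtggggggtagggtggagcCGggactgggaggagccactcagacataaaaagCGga
Igf2r: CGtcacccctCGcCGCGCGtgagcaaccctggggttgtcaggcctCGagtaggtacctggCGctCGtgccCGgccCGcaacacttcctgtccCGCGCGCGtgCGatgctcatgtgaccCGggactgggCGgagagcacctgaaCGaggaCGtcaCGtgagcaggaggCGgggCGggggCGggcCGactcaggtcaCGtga
Peg3: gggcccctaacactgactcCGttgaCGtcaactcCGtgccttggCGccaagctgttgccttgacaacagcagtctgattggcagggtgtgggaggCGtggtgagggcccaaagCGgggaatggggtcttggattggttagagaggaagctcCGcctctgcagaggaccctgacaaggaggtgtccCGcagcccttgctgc
Mest: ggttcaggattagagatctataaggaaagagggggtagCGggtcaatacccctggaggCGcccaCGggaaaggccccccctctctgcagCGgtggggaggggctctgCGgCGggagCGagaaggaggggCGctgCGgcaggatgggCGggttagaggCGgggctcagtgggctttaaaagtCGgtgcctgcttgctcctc

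The 4 starts differed in their CpG content. In the 250 bases upstream of the start there were 27 CpG for Igf2r, 14 for Mest, 8 for Peg3 and 6 for Igf2, against a median of 6 over 32851 RefSeq promoters. Of all those promoters 8.56% held at least as many as Igf2r and 50.4% at least as many as Igf2. The motif GGGCGG, which contains a CpG itself, was present on either strand upstream of Igf2, Igf2r and Mest and in 32.7% of all promoters. The motif TATAAA was on neither strand of the 4 windows and in 12.4% of all promoters. These matches describe the letters of the window; methylation and binding were not measured.

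Igf2, the fetal growth factor of the set, is expressed from the paternal copy and was the most abundant of the coding members in C2C12. The gene (ENSMUSG00000048583) spans 142650766 to 142666816 on the minus strand of chromosome 7. It had 159 reads in C2C12 co-culture and 114 in C2C12 control. In co-culture the lowest library had 57.0, the median 91.5 and the highest 108 CPM, against 16.5, 78.0 and 97.6 CPM in control. Reads were present in 12 of 12 libraries, 2 co-cultured libraries lay above the highest control, and the groups overlapped. Control 4 had 2 reads and control 1 had 6, the lowest levels of the line. The means were 87.1 ± 18.6 CPM in co-culture and 67.8 ± 30.6 CPM in control (SD, n = 6 each). In the edgeR quasi-likelihood test the log2 fold change was 0.26 (SE 0.242, 95% interval −0.24 to 0.76, adjusted p = 0.715).

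Igf2r, the maternally expressed receptor that binds IGF2 and carries it to lysosomes for breakdown, was second over the 12 C2C12 libraries pooled, at 47.1 CPM. In controls alone it stood below Peg3, at 42.1 and 53.4 CPM pooled. The gene (ENSMUSG00000023830) spans 12682406 to 12769664 on the minus strand of chromosome 17. It had 93 reads in C2C12 co-culture and 63 in C2C12 control. The lowest, median and highest libraries had 33.6, 53.8 and 57.0 CPM in co-culture, and 7.94, 43.4 and 75.1 CPM in control. The controls reached both below and above all co-cultured libraries, and controls 1 and 4 were again the lowest. The means were 50.9 ± 8.72 CPM in co-culture and 39.7 ± 24.6 CPM in control (SD, n = 6 each), with a fold change (log2) of 0.29 (SE 0.292, 95% interval −0.32 to 0.90, edgeR adjusted p = 0.752).

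Over the C2C12 genes that passed the filter on low counts, 37 of 2570 were called at an edgeR adjusted p under 0.05, which is 1.44%, with 21 higher and 16 lower. With library totals in place of TMM scaling, 23 were higher and 35 lower. Igf2 and Igf2r were the 2 members that passed the filter, and 0 of these 2 were called. Neither had an unadjusted p under 0.05, and 0 were called by DESeq2. Controls 1 and 4 were the shallowest C2C12 libraries, at 125872 and 121154 reads. Without them the log2 fold changes were 0.07 for Igf2 and 0.05 for Igf2r (edgeR adjusted p = 0.956 and 0.983). Both controls were also the lowest for these genes, so a move toward 0 was bound to follow.

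**Figure D1:**
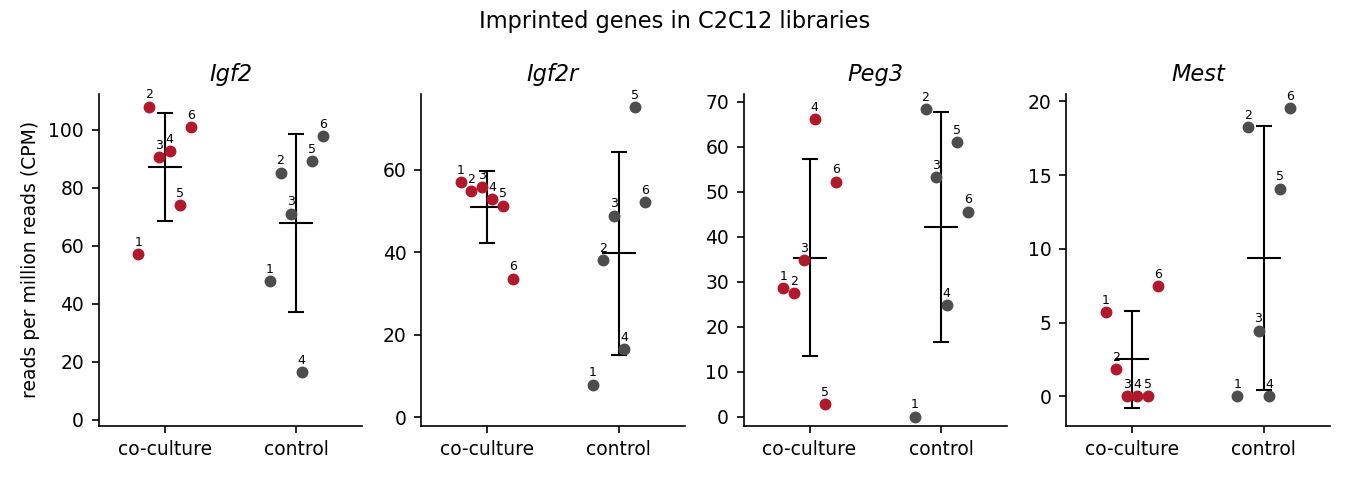
CPM of Igf2, Igf2r, Peg3 and Mest in each C2C12 library, co-culture left and control right, with replicate numbers beside the points and the mean ± SD of 6 libraries as a line with bars. The groups overlap for all 4 genes, controls 1 and 4 are low for Igf2 and Igf2r, and Mest stays below 8 CPM in co-culture with 3 controls above 14 CPM.

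Among the members that restrain growth, Cdkn1c and Grb10 were near the limit of detection. Cdkn1c, maternally expressed, encodes p57, an inhibitor of cyclin-dependent kinases that is known for cell cycle exit in muscle precursors. It had 4 reads in C2C12 co-culture and 3 in C2C12 control, 2.21 CPM (95% exact interval 0.601 to 5.65) and 2.004 CPM (0.413 to 5.86). Grb10, an adaptor that binds the insulin and IGF1 receptors and damps their signal, had 2 reads in co-culture and 0 in control. At this depth a difference in either gene was not detectable.

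Peg3, a paternally expressed zinc finger gene, had 55 reads in C2C12 co-culture and 80 in C2C12 control. The gene (ENSMUSG00000002265) spans 6703892 to 6730431 on the minus strand of chromosome 7. The lowest, median and highest libraries had 2.85, 31.7 and 66.0 CPM in co-culture, and 0, 49.4 and 68.4 CPM in control. Co-cultured library 5 had 1 read among 351269, control 1 had 0 among 125872, and the remaining 10 libraries lay between 24.8 and 68.4 CPM. The means were 35.3 ± 21.9 CPM in co-culture and 42.2 ± 25.5 CPM in control (SD, n = 6 each). Peg3 did not pass the filter. With no filter, 106 of 15439 genes were called (0.687%), and 0 of the 7 members with reads were among them. In that fit Peg3 had a fold change (log2) of −0.56 (SE 0.299, 95% interval −1.15 to 0.02, edgeR adjusted p = 0.611). Without controls 1 and 4, its lowest controls, Peg3 passed the filter, at −0.88 on the log2 scale (edgeR adjusted p = 0.347). With no filter it was at −0.30 without control 2 and at −0.30 without co-cultured library 5.

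Mest, a paternally expressed gene for a protein of the hydrolase fold, had the lowest unadjusted p of the set. The gene (ENSMUSG00000051855) spans 30723547 to 30748465 on the plus strand of chromosome 6. Co-cultured C2C12 libraries 1 to 6 had 2, 1, 0, 0, 0 and 2 reads, against 0, 12, 1, 0, 3 and 3 reads in controls 1 to 6. The medians were 0.914 CPM in co-culture and 9.26 CPM in control, and 3 of 6 co-cultured libraries and 2 of 6 controls had 0 reads. Control 2, the deepest library, gave 12 of the 19 control reads. Without the deepest library of each group the pooled levels were 3.16 CPM in co-culture and 8.34 CPM in control, against 2.76 CPM (95% exact interval 0.896 to 6.44) and 12.7 CPM (7.64 to 19.8) with them.

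In the fit with no filter Mest had a fold change (log2) of −1.85 (SE 0.702, 95% interval −3.22 to −0.47). Its unadjusted p was 0.00857 and its edgeR adjusted p 0.338, so it did not pass. Leaving out each of the 12 libraries in turn gave −2.31 to −1.34, below 0 in 12 of 12 fits, with edgeR adjusted p between 0.230 and 0.617. Copg2, which overlaps Mest on the opposite strand and has 6 of its 8 transcripts in the tables, had a fold change (log2) of 0.02 (edgeR adjusted p = 0.982). No strand setting is given, so reads of overlapping genes on opposite strands cannot be told apart. The antisense RNAs that overlap Igf2 and Igf2r (Igf2os and Airn) had 0 transcripts in the tables.

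Ndn encodes necdin, a paternally expressed protein of the MAGE family that promotes exit from the cell cycle. It had 2 reads in C2C12 co-culture and 4 in C2C12 control, 1.10 CPM (95% exact interval 0.134 to 3.99) and 2.67 CPM (0.728 to 6.84). With no filter the log2 fold changes were −0.88 for Ndn, 0.22 for Cdkn1c and 1.81 for Grb10, each with an interval that held 0. That of Cdkn1c changed sign when single libraries were left out, between −0.43 and 1.22. For bulk RNA such as this, fewer cells of a type and less RNA per cell cannot be told apart.

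**Figure D2:**
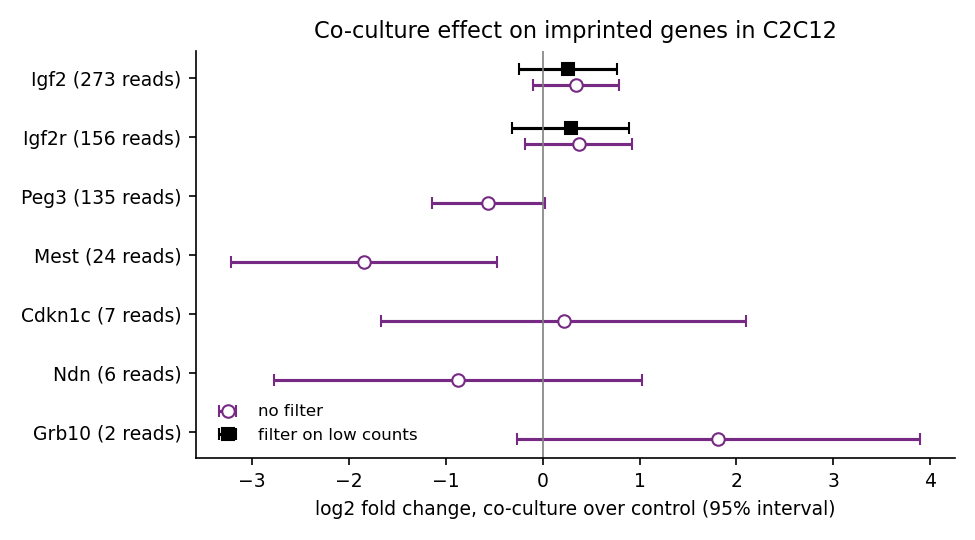
Log2 fold change of co-culture over control in C2C12 with its 95% interval, for the 7 members with reads, from the fit with no filter (open circles) and for the 2 members that passed the filter (squares). Intervals widen as reads fall from 273 for Igf2 to 2 for Grb10, and that of Mest, −3.22 to −0.47, is the one that leaves out 0.

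Dlk1, a paternally expressed membrane protein related to Notch ligands that is found on muscle and fat precursors, had no row in either table. Read as 0, this allows up to 0.906 CPM in C2C12 and up to 42.3 CPM in NSC34, provided that its transcripts were among those counted. H19 and Meg3, the maternally expressed long non-coding RNAs next to Igf2 and Dlk1, had no row either. The tables listed 67 of 15671 annotated transcripts of long non-coding genes in C2C12 (0.428%) and 20 in NSC34 (0.128%), against 36329 (35.7%) and 10155 (9.98%) of 101738 transcripts of coding genes. Malat1, Neat1, Gas5, Snhg1, Rian and Airn, non-coding RNAs of which the first 4 are abundant in most cultured mammalian cells, had no row as well. The tables thus give no level for H19 or Meg3: a 0 for them is a gap in what was counted, not a measurement.

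Levels of different genes were also set per kilobase, using the mean length of the transcripts that took the reads. Dividing by length assumes that reads rise with it, which was not tested for these Nanopore reads, so CPM is given beside it. In C2C12, over all 12 libraries, Igf2 had 23.5 CPM per kb (95% exact interval 20.8 to 26.5), Igf2r 5.34 (4.53 to 6.24) and Peg3 4.83 (4.05 to 5.72). Mest followed at 2.91 CPM per kb (1.86 to 4.32), Cdkn1c at 1.24 (0.497 to 2.55), Ndn at 0.491 (0.180 to 1.07) and Grb10 at 0.123 (0.0149 to 0.445). The intervals of Igf2 and Igf2r were apart. Those of Igf2r and Peg3, of Peg3 and Mest, of Mest and Cdkn1c, of Cdkn1c and Ndn, and of Ndn and Grb10 overlapped. Some of this depends on the division by length. In CPM the intervals of Peg3 (34.2 to 48.3), Mest (4.65 to 10.8) and Cdkn1c (0.850 to 4.36) were apart. Igf2 was at 82.5 CPM (73.0 to 92.9) and Igf2r at 47.1 CPM (40.0 to 55.1), which overlapped Peg3. Counting error is all that such an interval covers, as the reads have no molecular identifiers.

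The transcripts that took the reads were few. Igf2-201 took 208 of 273 Igf2 reads in C2C12 (76.2%, 95% exact interval 70.7 to 81.1%) and Igf2-202 took 44 (16.1%). Both start within 50 bases of position 142657496, and such transcripts held 92.3% of Igf2 reads. Igf2-205, which starts upstream at 142659489, had 4 reads in co-culture and 10 in control. Igf2r-201 took 155 of 156 Igf2r reads, and Igf2r-202 took 1. Peg3-201 took 127 of 135 Peg3 reads (94.1%) and Peg3-204 took 6. Mest-211 took 21 of 24 Mest reads in C2C12, 2 of them in co-culture and 19 in control, while Mest-202 took 2, both in co-culture.

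Tested one by one, 10 of 2586 C2C12 transcripts were called (0.387%), and 0 of the members' transcripts were among them. DESeq2 called 35 transcripts. Igf2-201 had a fold change (log2) of 0.51 (SE 0.404, edgeR adjusted p = 0.760), and Igf2r-201 had 0.26 (SE 0.338, edgeR adjusted p = 0.910). Transcripts of 1 gene share most of their sequence, so the split of reads between them depends on how the authors assigned them.

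**Figure D3:**
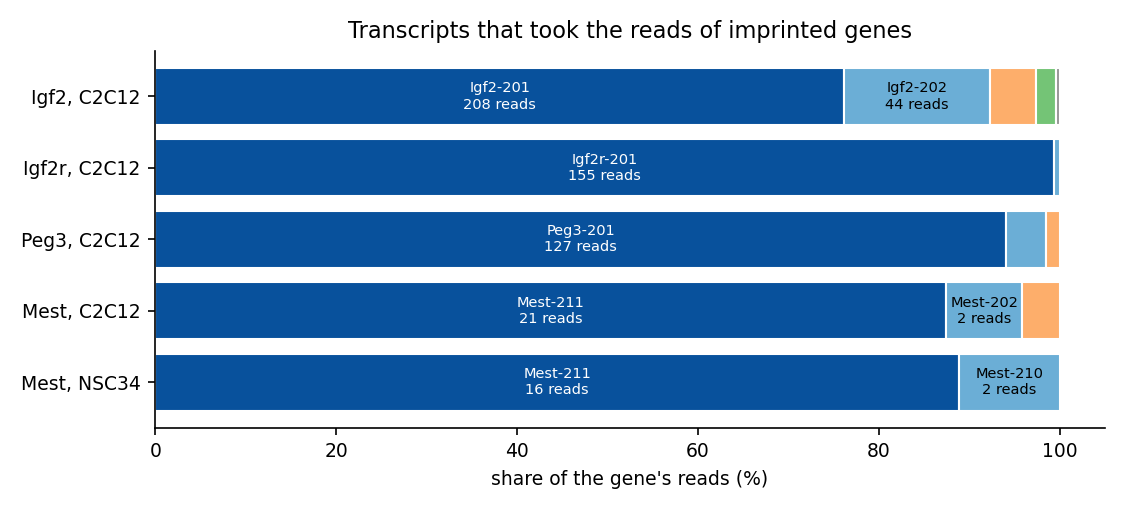
Share of each gene's reads (%) by annotated transcript, for Igf2, Igf2r, Peg3 and Mest in C2C12 and Mest in NSC34, over all libraries of a line. A single transcript took 76.2% of the reads of Igf2 and over 87% of those of the other genes, and Mest-210 appears in NSC34 only, with 2 reads.

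In NSC34 Mest had 18 reads in all, and Peg3 had 3. Mest had 13 reads in co-culture, with 1, 7, 1, 0, 2 and 2 in libraries 1 to 6, against 5 in control, with 0, 2, 0, 0, 2 and 1. Pooled levels were 236 CPM in co-culture (95% exact interval 126 to 404) and 315 CPM in control (102 to 736), and the libraries of both groups overlapped. Mest-211 took 16 of the 18 reads and Mest-210, which starts upstream at 30733506, took the other 2. Of NSC34 genes 0 of 49 tested were called for co-culture (0%) by edgeR, with 1 at an unadjusted p under 0.05 and 0 by DESeq2. No member passed the filter there, and with no filter Mest had a fold change (log2) of 0.19 (95% interval −1.38 to 1.75, edgeR adjusted p = 0.888). That sign is opposite to the levels, which averaged 264 ± 237 CPM in co-culture and 357 ± 478 CPM in control (SD, n = 6 each), so no direction is read from it.

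Mest was the 1 member that passed the filter over the 24 libraries, and it was lower in C2C12 than in NSC34. It passed through NSC34, as its highest C2C12 library was at 19.5 CPM, so the direction of its calls was set by the filter. Over all libraries it was at 7.25 CPM in C2C12 (95% exact interval 4.65 to 10.8) and at 254 CPM in NSC34 (151 to 401). At the C2C12 level, 0.514 reads would be found in the 70865 reads of NSC34, where 18 were. In co-cultured libraries the log2 fold change of C2C12 over NSC34 was −5.66 (SE 0.752, edgeR adjusted p = 1.15e-07), and in controls it was −3.84 (SE 0.982, edgeR adjusted p = 0.00230). It was thus called in both, but in neither with the replicate number as a block. The libraries numbered 4 had 0 Mest reads in every group. A block level for that number cannot be estimated, so the block fit cannot decide on Mest. The background was broad. In co-culture 694 of 1328 genes were called (52.3%), of which 225 were lower in C2C12 (16.9%). In controls 536 were called (40.4%), of which 77 were lower (5.80%). With TMM and no filter Mest was at −4.61 in co-culture (edgeR adjusted p = 6.23e-09) and −2.57 in controls (edgeR adjusted p = 0.0470). Of 15839 genes 2109 were then called in co-culture, 275 of them lower, and 1373 in controls, 97 of them lower.

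The scaling bears on these calls. The TMM factors of shallow NSC34 libraries reached 7.87, against 0.688 to 0.737 in C2C12, and the median log2 fold change of all tested genes was 0.38 in co-culture and 0.94 in controls. With library totals in place of TMM, Mest was at −6.10 in co-culture (edgeR adjusted p = 4.09e-08) and −4.68 in controls (edgeR adjusted p = 0.000886). The calls in controls were then 160 higher and 144 lower, against 459 and 77 with TMM. Without NSC34 control 2, which held 2 of the 5 control reads, Mest was at −3.07 in controls and no longer called (edgeR adjusted p = 0.0506). Line and count table coincide, so a difference between lines cannot be told apart from one between the tables.

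**Figure D4:**
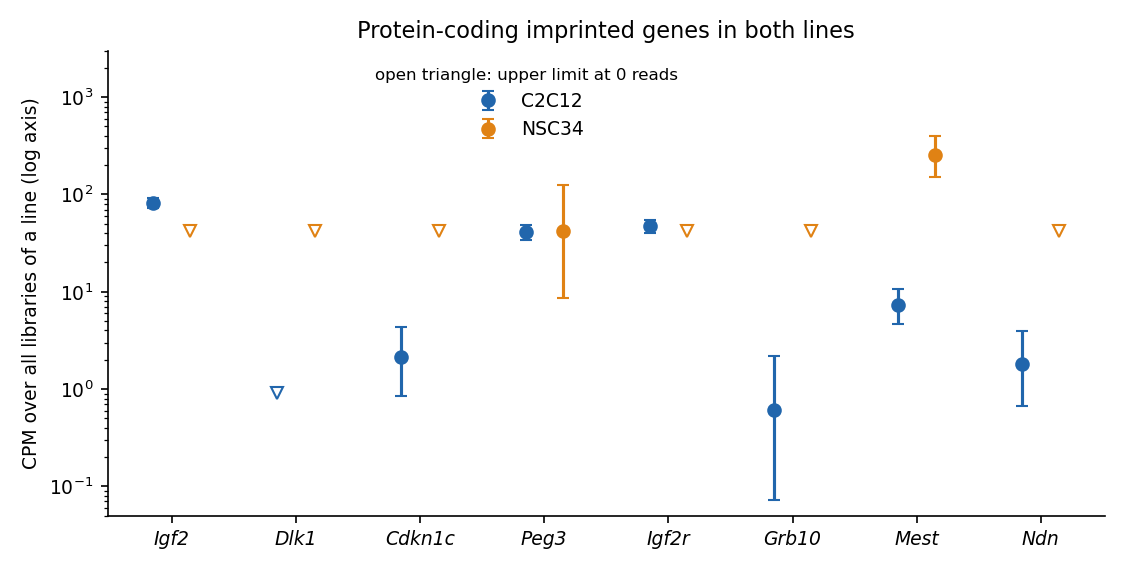
Level of the 8 protein-coding members over all libraries of a line, in CPM on a log axis, C2C12 left and NSC34 right of each pair, with 95% exact intervals. Open triangles mark the upper limit where a line had 0 reads; Mest, at 7.25 CPM in C2C12 and 254 CPM in NSC34, has intervals that are apart.

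Igf2 and Igf2r had 0 reads in NSC34. At the C2C12 levels 5.85 reads of Igf2 and 3.34 of Igf2r would be found in 70865 reads. Igf2 was at 82.5 CPM in C2C12 (95% exact interval 73.0 to 92.9), which is 1.95-fold the limit of 42.3 CPM. In co-culture alone it was at 87.7 CPM in C2C12, against a limit of 54.5 CPM in NSC34. In controls alone it was at 76.1 CPM, below the NSC34 limit of 189 CPM, so no fold is bounded there. Igf2r was at 47.1 CPM in C2C12 (95% exact interval 40.0 to 55.1). That interval holds the limit of 42.3 CPM, so no fold is given. Neither passed the filter over the 24 libraries. With no filter and library totals, 1089 of 15839 genes were called in co-culture (6.88%) and 295 in controls (1.86%), and Igf2 was called in co-culture (edgeR adjusted p = 0.0326) but not in controls (edgeR adjusted p = 0.987). Igf2r was not called in co-culture in that fit (edgeR adjusted p = 0.153). With TMM and no filter Igf2 was called in co-culture (edgeR adjusted p = 1.78e-05) and in controls (edgeR adjusted p = 0.0241), and Igf2r in co-culture (edgeR adjusted p = 0.00215) but not in controls (edgeR adjusted p = 0.152). The contrast in co-culture minus that in controls was 0.34 for Igf2 and 0.36 for Igf2r in that fit (log2, edgeR adjusted p = 0.9998 for each). Its 95% intervals were −1017 to 1018 and −1588 to 1588. With 0 reads in both NSC34 groups the test cannot decide whether the contrasts differ. Peg3 was at 40.8 CPM in C2C12 (95% exact interval 34.2 to 48.3) and 42.3 CPM in NSC34 (8.73 to 124), and the interval of NSC34 spans that of C2C12. Cdkn1c, Grb10 and Ndn, at 0.604 to 2.12 CPM in C2C12, lay below what 70865 reads can show.

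Whether co-culture had unequal effects in C2C12 and NSC34 was tested in the same model. Of 1328 genes 0 were called by edgeR (0%), with 160 at an unadjusted p under 0.05, and DESeq2 called 2. For Mest the difference, C2C12 minus NSC34, was −1.82 on the log2 scale (unadjusted p = 0.0583, edgeR adjusted p = 0.437).

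Other imprinted genes did not pass the test for co-culture in C2C12. Of a list of 50, reads were found for 26 in C2C12, 6 were tested, and 0 were called. Their median log2 fold change was 0.09, against 0.00240 over all tested genes. The smallest p-values were those of Cd81, a tetraspanin encoded in the imprinted region of distal chromosome 7, and Nap1l4, a histone chaperone. Cd81 had a median of 690 CPM in co-culture and 612 CPM in control (log2 fold change 0.20, edgeR adjusted p = 0.365). Nap1l4 had medians of 143 and 112 CPM in co-culture and control (log2 fold change 0.34, edgeR adjusted p = 0.373). Between the lines, where 52.3% of all tested genes were called in co-culture and 40.4% in controls, 3 of the list were tested. Cd81 was the 1 called, higher in C2C12 by 3.30 on the log2 scale in co-culture (edgeR adjusted p = 3.28e-09) and by 2.09 in controls (edgeR adjusted p = 0.000720). Its pooled levels were 712 CPM in C2C12 and 90.9 CPM in NSC34 in co-culture, and 659 and 252 CPM in controls of C2C12 and NSC34. The NSC34 levels come from totals of 55007 and 15858 reads, so from few reads of Cd81. Its level in C2C12 was enough for the filter, whatever that in NSC34, which bears on the direction of its calls. With no filter and library totals, 3 of 29 genes of the list were called in co-culture, where 6.88% of all genes were, and 0 in controls, where 1.86% were.

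The genes through which IGF2 acts were seen in part. Of 34 genes of IGF and insulin signalling, 31 had reads in C2C12, 5 were tested, and 0 were called for co-culture, with a median log2 fold change of 0.05. Igf1r, the receptor that carries the growth signal of IGF2, had a median of 32.3 CPM in C2C12 co-culture and 31.5 CPM in C2C12 control. Igfbp6, a binding protein that prefers IGF2 over IGF1, had a median of 134 CPM in co-culture and 58.1 CPM in control, with a fold change (log2) of 0.70 (SE 0.222, edgeR adjusted p = 0.108). Igf1, the other ligand, had a median of 47.4 CPM in co-culture and 64.8 CPM in control, with a fold change (log2) of −0.44 (SE 0.215, edgeR adjusted p = 0.357). With no filter, 2 of the 31 genes with reads were called, against 106 of 15439 (0.687%) over all genes: Igfbp6 at 0.78 (edgeR adjusted p = 0.0256) and Pik3r1, a regulatory subunit of PI3 kinase, at −1.18 (edgeR adjusted p = 0.0258). Between the lines the binding proteins Igfbp5 and Igfbp7 passed the filter through C2C12, where they had 487 and 522 reads, against 0 and 1 in NSC34, so the direction of their calls was set by the filter. With no filter and library totals, 3 of the 31 genes were called in co-culture, where 6.88% of all genes were, and 0 in controls, where 1.86% were.

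Among the 2570 tested genes, the 3 whose log2 CPM over the 12 C2C12 libraries was most like that of Igf2 were Sin3b, Pcmtd2 and ENSMUST00000239099, a transcript with no name in the annotation used. Their Pearson correlations with Igf2 were 0.911, 0.873 and 0.870. They are the highest of 2570, in libraries whose depth differed from 121154 to 658075 reads and was common to all genes of a library. None of the 3 was called for co-culture (edgeR adjusted p between 0.338 and 0.799).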

How the data were processed

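The counts deposited by the authors are whole numbers of reads per Ensembl transcript on GRCm38, per the labels and the submitters' processing notes, with 1 table per line and 1 column per library. No aligner, counter, annotation release or strandedness is given in the sources used here. Columns were matched by name, with 0 unmatched, and no 2 libraries were identical. Transcripts were named with GENCODE M21 and summed per gene; those with no match (0.224% of C2C12 and 0.238% of NSC34 reads) were kept as features of their own. CPM scale each library to 1e6 reads. Intervals are exact Clopper-Pearson intervals at 95%, and a count of 0 was given a limit of 3 reads. Both cover counting error alone.

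Tests used edgeR 4.0.16 in R 4.3.3 (filterByExpr, TMM, quasi-likelihood F test, Benjamini-Hochberg over all tested features, threshold 0.05): 12 libraries for each line, and 4 groups over 24 libraries for contrasts of lines and for the difference of effects. Standard errors are the log2 fold change over the square root of F. Alternatives were RLE factors, library totals, DESeq2 1.42.0, a mean count of at least 10 as the filter, no filter, a length correction (loess span 0.5), libraries left out, and the replicate number as a block; no filter with library totals was added after seeing the data. All 10 members are named, with the top transcripts of members with at least 20 reads, the smallest p-values of each list, and the genes most like Igf2; the same could not be done for H19. Igf1r, Copg2, Igf2-205, Mest-210 and any other gene or transcript named fall outside that rule and were chosen after their values were seen. The members and lists were chosen with earlier results of these data known. Sequences and promoters are those of RefSeq.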

Additional observations from a re-analysis of the deposited data

Results flagged for a closer look

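Of 10 groups of 6 libraries tested for members with at least 15 reads in a line, 2 held a library far from the other 5 (gap over range above 0.625). For normal values of equal spread about 1 in 20 would pass. That rate need not hold for few reads in libraries of unequal depth, so 2 of 10 is not read as an excess. Igf2r in co-cultured C2C12 had its lowest value in library 6, 33.6 CPM from 9 reads, with the next at 51.2 CPM (gap over range 0.755). Mest in co-cultured NSC34 had its highest value in library 6, 713 CPM from 2 reads, with the next at 232 CPM (gap over range 0.674). That library held 2807 reads, the fewest of its group, and its part in the value was not tested.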

How the results depend on the processing

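For co-culture in C2C12, 0 members were called under the 20 alternatives, and the log2 fold changes stayed above 0 for Igf2 (0.07 to 0.37) and Igf2r (0.05 to 0.51). The count of called genes was 37, with 58 under library totals, 106 with no filter, 10 without controls 1 and 4, and 11 to 74 with single libraries left out. Called transcripts were 10, with 126 under no filter, 1 with the replicate block, 35 with DESeq2, and 5 to 15 with single libraries left out. In NSC34, 0 genes were called, or 0 to 1 with single libraries left out.

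Between the lines in controls, 536 genes were called, with 304 under library totals, 1373 with no filter, 295 with no filter and library totals, and 578 to 880 with single NSC34 libraries left out. In co-culture 694 were called, with 2109 under no filter and 1089 with no filter and library totals. Members called in controls were 1, with 2 under no filter, 0 with the replicate block, and 0 to 1 with single libraries left out. In co-culture they were 1, with 3 under no filter, 2 with no filter and library totals, 2 without NSC34 libraries under 1000 reads (Igf2, with 0 reads in NSC34, then passed the filter through C2C12), 2 with each single library left out, and 0 with the replicate block. With the block Mest was at −4.95 in co-culture and −3.24 in controls and was not called. The libraries numbered 4 had 0 Mest reads in every group, so a block level for that number cannot be estimated and this fit cannot decide on Mest. Mest stayed below 0 under the 18 alternatives. For the difference of effects 0 genes were called, with 2 under DESeq2 and 0 to 10 with single libraries left out.

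The labels do not say whether replicate numbers pair the libraries. Same-numbered C2C12 libraries correlated at −0.05 to 0.10, with 1 of 6 pairs over 0.1. NSC34 libraries correlated at −0.23 to 0.32, also with 1 of 6. With so few reads per gene, low correlations cannot decide whether the libraries were paired. A co-cultured library correlated best with the control of its own number for 2 of 6 in C2C12 and 1 of 6 in NSC34. With the block 26 C2C12 genes and 0 members were called for co-culture. Between the lines 643 genes were then called in controls and 658 in co-culture. Depth limited the set: 5 of the 8 coding members had fewer than 25 reads in C2C12, and 6 of 8 had none in NSC34.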

Other observations

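Genes for 3 proteins known for binding Igf2 mRNA were looked up in C2C12. Igf2bp2 had 33 reads in co-culture and 15 in control, 18.2 CPM (95% exact interval 12.5 to 25.6) and 10.02 CPM (5.61 to 16.5), with a fold change (log2) of 0.92 in the fit with no filter (SE 0.495, edgeR adjusted p = 0.611). Igf2bp3 had 12 reads in co-culture and 13 in control, with a fold change (log2) of −0.31 (edgeR adjusted p = 0.882). Igf2bp1 had 0 reads in the line, which allows up to 0.906 CPM.

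Among other imprinted genes in NSC34, Commd1 and Nap1l4 had 14 reads each and Gnas 6. In C2C12, Dcn, a small proteoglycan of the matrix, had 449 reads, against 0 in NSC34. Ins2, which lies beside Igf2, had 32 reads in C2C12.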
